A study of Homo sapiens with 6 samples.

Results

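The DNA replication and S-phase genes were measured in OCI-AML2 cells, a human acute myeloid leukaemia line. They are 56 genes chosen by symbol for their part in copying the genome, of 58233 gene identifiers in the count table. All 56 were found, and all 56 were among the 13028 genes with enough counts to be tested. They fall into 6 lists by role: 12 genes of helicase loading and licensing, 7 of origin firing, 19 of polymerases and the fork, 4 of nucleotide supply, 5 of chromatin copying, and 9 of G1/S control and E2F.

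Polyadenylated RNA was sequenced from 2 groups with 3 libraries each. NT control cells carried a non-targeting control, and IKZF1-ko cells were CRISPR-derived knockouts of IKZF1, the gene of the lymphoid and myeloid transcription factor Ikaros. The labels name no drug, dose or time, and both groups were grown in the same medium. The labels do not give the guides, and do not say whether the 3 lines of a group were separate clones or triplicate cultures, so p-values here measure the spread between these libraries. The comparison asks which genes differ between the libraries labelled IKZF1-ko and the controls.

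DNA replication is prepared in G1, when the origin recognition complex, CDC6 and CDT1 load the ring-shaped MCM2-7 helicase onto DNA, a step called licensing. Geminin (GMNN) binds CDT1 and stops a second round of loading after S phase has begun. In S phase the kinases CDC7-DBF4 and cyclin E-CDK2 help CDC45 and the GINS complex join the ring, which then unwinds DNA ahead of the polymerases. Polymerase alpha-primase lays down primers, RFC loads the PCNA clamp, polymerases delta and epsilon extend the strands, FEN1 and LIG1 finish the lagging strand, and RPA covers single-stranded DNA. Many of these genes are transcribed at the G1/S boundary by E2F factors, whose activity the retinoblastoma protein restrains.

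The regions around the start sites of these genes were searched for letters that E2F factors are known to bind, and the stretches printed next show where they were found in some of them. RefSeq windows on GRCh38.p14, from 250 bases before to 50 after a transcription start, were found for 47 of the 56 genes. The windows were searched on both strands for TTTCCCGC, TTTGGCGC, TTTCGCGC and TTTGCCGC. At least 1 of these letter runs was found in 25 of the 47 genes (53.2%), against 6.70% of 9798 tested genes with a window, 3.99% of 27305 genes and 3.31% of 35116 windows of the same length. By role, the genes with a match were 7 of 10 in helicase loading and licensing, 4 of 6 in origin firing, 7 of 16 at polymerases and the fork, 1 of 4 in nucleotide supply, 2 of 5 in chromatin copying and 4 of 6 in G1/S control. A match describes the letters only and shows no binding.

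The next 4 stretches are the whole 250 bases before the start of MCM6 (chr2:135876444-135876693, minus strand), POLA1 (chrX:24693668-24693917, plus strand), CDC25A (chr3:48188418-48188667, minus strand) and PRIM2 (chr6:57314555-57314804, plus strand). None of the 4 overlaps a gene of GENCODE 29. The first 3 are examples with a match, from 53 genes that were lower in 2 of the 6 libraries, as given further on. The last belongs to the gene that differed least between those libraries and the others. Of the 22 genes with a window and no match, 21 were lower too, so these examples do not show that the letters go with the difference. Each is written 5′ to 3′ on the gene's strand, and capitals mark the E2F letters.
MCM6: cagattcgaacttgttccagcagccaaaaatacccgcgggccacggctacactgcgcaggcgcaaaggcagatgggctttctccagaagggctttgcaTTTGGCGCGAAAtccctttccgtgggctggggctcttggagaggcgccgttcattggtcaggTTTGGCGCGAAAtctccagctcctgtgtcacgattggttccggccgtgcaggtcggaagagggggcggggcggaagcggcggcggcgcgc
POLA1: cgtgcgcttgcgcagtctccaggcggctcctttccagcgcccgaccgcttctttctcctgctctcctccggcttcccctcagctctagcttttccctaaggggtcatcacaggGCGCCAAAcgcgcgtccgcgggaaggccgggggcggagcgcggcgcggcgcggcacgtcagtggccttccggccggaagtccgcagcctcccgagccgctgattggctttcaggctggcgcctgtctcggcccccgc
CDC25A: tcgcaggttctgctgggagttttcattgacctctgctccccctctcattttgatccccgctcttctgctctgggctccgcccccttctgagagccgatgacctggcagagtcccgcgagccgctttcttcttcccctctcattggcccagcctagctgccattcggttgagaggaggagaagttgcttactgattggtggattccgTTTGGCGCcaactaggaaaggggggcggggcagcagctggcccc
PRIM2: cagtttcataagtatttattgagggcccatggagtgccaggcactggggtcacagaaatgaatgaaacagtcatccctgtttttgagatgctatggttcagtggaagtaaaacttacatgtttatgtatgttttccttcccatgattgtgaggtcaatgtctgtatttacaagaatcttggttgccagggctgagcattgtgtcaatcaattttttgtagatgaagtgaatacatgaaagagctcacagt
MCM6 held 4 matches in 2 overlapping pairs, the first starting 152 bases and the last 86 bases before the start. POLA1 held 1 match 137 bases before its start, CDC25A held 1 match 44 bases before its start, and PRIM2 held none.

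A further 7 genes are shown by 30 bases around their first match, with the match in capitals, to compare genes of different roles. The sites of MCM3 (chr6:52284898-52284927, minus strand) and PCNA (chr20:5126663-5126692, minus strand) lie outside the genes of GENCODE 29. Those of GINS2 (chr16:85688967-85688996, minus strand), RFC3 (chr13:33818083-33818112, plus strand) and CDT1 (chr16:88803743-88803772, plus strand) lie before the RefSeq start but in an exon of the gene in GENCODE 29. TYMS (chr18:657603-657632, plus strand) has 29 of the 30 bases in an exon, and E2F1 (chr20:33686400-33686429, minus strand) has 5.
MCM3: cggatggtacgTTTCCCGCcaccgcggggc
GINS2: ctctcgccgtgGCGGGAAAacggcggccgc
RFC3: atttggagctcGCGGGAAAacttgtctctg
PCNA: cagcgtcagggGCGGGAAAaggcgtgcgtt
TYMS: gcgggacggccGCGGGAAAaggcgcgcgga
E2F1: gtggctctttcGCGGCAAAaaggatttggc
CDT1: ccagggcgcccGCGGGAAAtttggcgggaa
The same run, GCGGGAAA, was found in GINS2, RFC3, PCNA, TYMS and CDT1, at 31 to 59 bases before the start. CDT1, whose level went the opposite way to the other genes (given further on), was not set apart by these letters.

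Total counts per library ranged from 11300519 to 18214328. Of the markers of myeloid blasts, 7 of 8 had a mean of at least 1 CPM (counts scaled to a common library total), while 1 of 4 B cell, 1 of 4 fibroblast and 0 of the erythroid, T cell, epithelial and endothelial markers did. At 0 in all 6 libraries were 5 of 5 erythroid, 3 of 4 T cell, 4 of 5 epithelial, 1 of 4 B cell, 1 of 3 endothelial and 0 of 4 fibroblast markers. IKZF1 itself was at 331, 292 and 334 CPM across NT control replicates 1 to 3 and 421, 426 and 436 CPM across those of IKZF1-ko. The groups did not overlap, and the libraries labelled IKZF1-ko were the higher ones. The log2 fold change was 0.42 on group alone (edgeR adjusted p = 0.606), and with a term for the library sets defined next IKZF1 rose by 0.43 (edgeR adjusted p = 1.23e-05). The mRNA level therefore gives no check of the knockout, mRNA counts do not show whether the protein was lost, and IKZF1-ko stands here for the libraries so labelled. NT control replicate 2 and IKZF1-ko replicate 1 stood apart from the other 4 libraries along the first principal component of all tested genes, which held 67.6% of the variance. No label names this split. These 2 libraries are called the smaller set here and the other 4 the larger set, and since the sets were defined from the counts, values between them are given with no test. Of the 56 genes, 8 share exon positions with another gene on the same strand and 17 on the opposite strand only, and since the strand setting of the counting is not given in the sources used here, their counts are less certain.

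The replication genes were nearly all lower in the smaller set, in both groups. Their summed level was 8358 and 8270.0 CPM in NT control replicates 1 and 3 but 4573 CPM in replicate 2. For the libraries labelled IKZF1-ko the sum was 7779 and 7679 CPM in replicates 2 and 3 but 4320.2 CPM in replicate 1. Of the 56 genes, 53 (94.6%) were below all 4 libraries of the larger set in both libraries of the smaller set, against 31.5% of all tested genes. CDT1 alone was above in both, against 32.5% of all tested genes, and PRIM2 and RPA3 overlapped. The median log2 difference, smaller set minus larger set, was -0.86 within NT control and -0.82 within IKZF1-ko, against 0.02 and 0.0033 over all tested genes. At least 2-fold lower levels in both groups were found for 17 of the 56 genes (30.4%), against 1.9% of all tested genes. In bulk RNA, fewer cells in S phase and less of these transcripts per cell cannot be told apart.

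**Figure D1:**
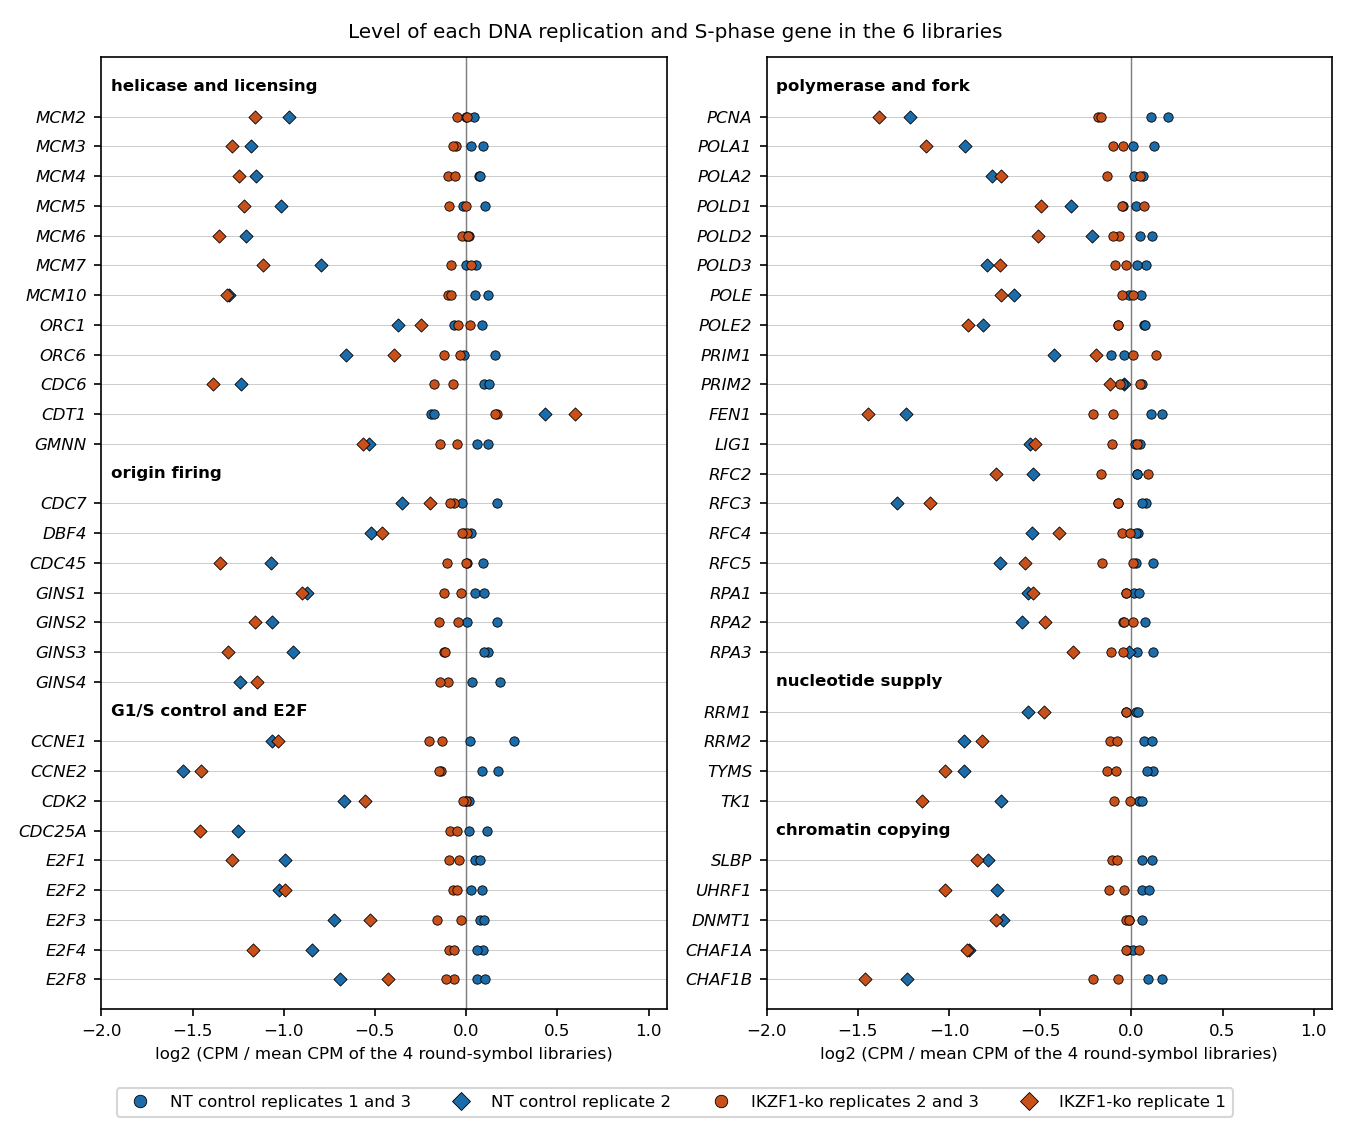
Level of each of the 56 genes in each library, as log2 of its CPM over the mean CPM of the 4 libraries of the larger set (circles), with the smaller set as diamonds and the groups by colour. Diamonds lie left of all circles for 53 genes and right of them for CDT1. For PRIM2 and RPA3 the NT control diamond lies among the circles and the IKZF1-ko diamond left of them.

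Genes of helicase loading and licensing had a median log2 difference of -1.03 within NT control and -1.15 within IKZF1-ko, and 11 of 12 were lower in both. MCM3, a subunit of the helicase ring, had the highest level per length of this list, at 178 CPM per kb of exon over the larger set. MCM3 was at 691, 287 and 662 CPM across NT control replicates 1 to 3 and 267, 625 and 617 CPM across those of IKZF1-ko. Its libraries of the smaller set were thus 2.36-fold and 2.33-fold below the others of their groups, with no overlap. The 6 ring subunits had mean log2 differences from -1.28 (MCM6) to -0.95 (MCM7). Their proportions differed somewhat between the sets. Per length, MCM7 made up 153% and 139% of the mean of the 6 subunits in the smaller set (the NT control library first), above the 126% to 133% of the larger set. MCM3 made up 159.7% and 168% there, below the 171% to 179% of the larger set. MCM5, the lowest, was at 36.7% to 39.01% in all 6 libraries, with overlap between the sets. The merged exon length used as divisor differs between subunits, at 7338 bases for MCM5 and 3650 for MCM3. Shares of different subunits therefore depend on it, while the share of one subunit can be compared between libraries.

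The largest difference of the licensing list was that of CDC6, the ATPase that helps load the ring, followed by MCM10, a factor of helicase activation. CDC6 was at 60.9, 24.2 and 62.02 CPM across NT control replicates 1 to 3 and 21.7, 54.2 and 50.4 CPM across those of IKZF1-ko. Its mean log2 difference was -1.30, and that of MCM10 was -1.30. ORC1, a subunit of the origin recognition complex, had the smallest difference in size, at -0.31. ORC1 was at 99.02, 71.9 and 88.97 CPM across NT control replicates 1 to 3 and 78.5, 94.5 and 90.3 CPM across those of IKZF1-ko. The libraries of the smaller set were still the 2 lowest. ORC6, of the same complex, had a mean log2 difference of -0.52.

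CDT1, the loading factor that is degraded once S phase begins, was the 1 gene of the 56 that was higher. It was at 102, 157 and 103 CPM across NT control replicates 1 to 3 and 177, 131 and 130.5 CPM across those of IKZF1-ko. Its 2 highest libraries were those of the smaller set, 1.53-fold and 1.35-fold above the others of their groups. Its inhibitor GMNN was lower there, at 42.1, 27.9 and 43.9 CPM across NT control replicates 1 to 3 and 27.3, 38.9 and 36.6 CPM across those of IKZF1-ko. Per length, CDT1 over GMNN gave ratios of 1.799 and 1.75 for NT control replicates 1 and 3 but 4.18 for replicate 2. In IKZF1-ko the ratio was 2.5004 and 2.65 in replicates 2 and 3 and 4.798 in replicate 1. The ratio of CDC6 to CDT1 went the other way, from 0.359 and 0.36 to 0.0922 in NT control and from 0.248 and 0.232 to 0.0738 in IKZF1-ko. The 2 loading factors therefore differed in opposite directions between the sets.

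The origin firing genes were all lower in the smaller set, with median log2 differences of -1.05 and -1.02. CDC45, which joins the ring to make the active helicase, had both the highest level per length (28.9 CPM per kb) and the largest difference (-1.20). CDC45 was at 87.5, 39.1 and 82.5 CPM across NT control replicates 1 to 3 and 32.3, 82.01 and 76.5 CPM across those of IKZF1-ko. The 4 GINS subunits had mean log2 differences from -1.18 (GINS4) to -0.88 (GINS1). The kinase that fires origins differed least. CDC7, its catalytic subunit, was at 36.99, 25.8 and 32.4 CPM across NT control replicates 1 to 3 and 28.7, 31.4 and 30.9 CPM across those of IKZF1-ko, a mean log2 difference of -0.27, and DBF4, its activator, had -0.49. Subunits of the active helicase thus differed more between the sets than the kinase.

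**Figure D2:**
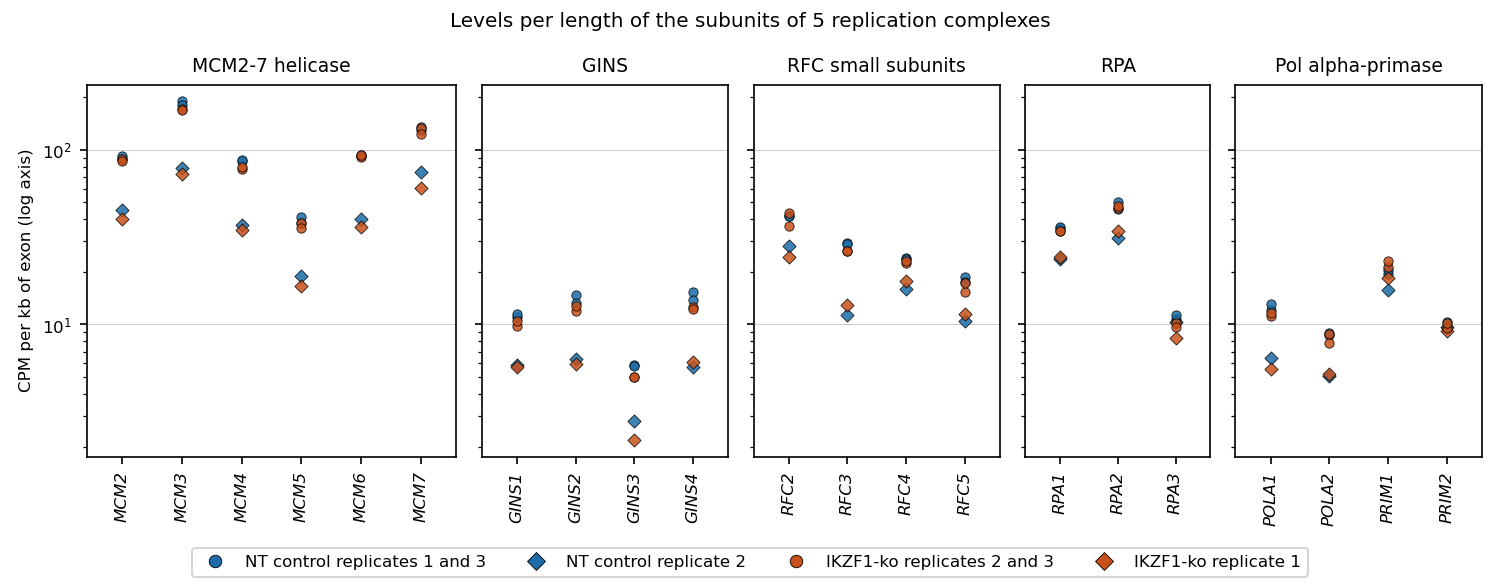
CPM per kb of exon on a log axis for the subunits of 5 replication complexes, with the larger set as circles, the smaller set as diamonds and the groups by colour. The diamonds lie below the circles for every MCM2-7, GINS and RFC subunit, and among or near them for RPA3 and PRIM2.

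At polymerases and the fork the difference was smaller, with medians of -0.61 and -0.51, and 17 of 19 genes were lower in both. PCNA, the sliding clamp, had the highest level per length of this list, at 175 CPM per kb over the larger set. It was 75.4 CPM per kb for NT control replicate 2 against 67.05 for IKZF1-ko replicate 1. PCNA was at 277, 111 and 296 CPM across NT control replicates 1 to 3 and 98.6, 227 and 229.7 CPM across those of IKZF1-ko. FEN1, the nuclease that trims flaps on the lagging strand, had the largest difference (-1.33). FEN1 was at 127, 48.1 and 122 CPM across NT control replicates 1 to 3 and 41.7, 106 and 98.1 CPM across those of IKZF1-ko. PRIM2, the large subunit of primase, had the smallest. PRIM2 was at 48.02, 44.8 and 44.7 CPM across NT control replicates 1 to 3 and 42.6, 44.3 and 47.8 CPM across those of IKZF1-ko, so its 6 libraries overlapped and its mean log2 difference was -0.078.

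Subunits of one complex did not always differ alike. In polymerase alpha-primase, the mean log2 difference was -1.01 for the catalytic subunit POLA1, -0.73 for POLA2, -0.30 for the primase subunit PRIM1 and -0.078 for PRIM2. Among the clamp loader subunits RFC3 had -1.19, while RFC2, RFC4 and RFC5 had -0.64, -0.47 and -0.65. RPA1 and RPA2 had -0.55 and -0.54, and RPA3 had -0.16. Polymerase delta subunits POLD1, POLD2 and POLD3 had -0.41, -0.36 and -0.75, and polymerase epsilon subunits POLE and POLE2 had -0.68 and -0.85. LIG1, the ligase of the lagging strand, had -0.54. The ring of MCM2-7 spanned a narrower range than polymerase alpha-primase or the clamp loader. Per length, the ratio of MCM6 to PRIM2 was 9.07, 4.17 and 9.65 across NT control replicates 1 to 3, and 3.96, 9.61 and 9.09 across those of IKZF1-ko. PRIM1, POLA2, POLD1, POLD3 and FEN1 are among the 8 genes that share exon positions on the same strand.

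The 4 nucleotide supply genes were lower in both libraries of the smaller set, with medians of -0.89 and -0.82, and none was 2-fold lower in both groups. TYMS, thymidylate synthase, had the highest level per length (136 CPM per kb) and the largest difference (-0.96). TYMS was at 364, 178 and 356 CPM across NT control replicates 1 to 3 and 165, 306 and 317 CPM across those of IKZF1-ko. The 2 subunits of ribonucleotide reductase differed by unequal amounts. RRM1, the large subunit, was at 211, 139.7 and 212 CPM across NT control replicates 1 to 3 and 149, 203 and 203 CPM across those of IKZF1-ko, a mean log2 difference of -0.52. RRM2, the subunit whose level follows the cell cycle, had -0.86, and TK1, the thymidine salvage kinase, had -0.93. TYMS shares exon positions with ENOSF1 and TYMSOS on the opposite strand, and RRM2 with AC007240.1 on its own strand.

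Genes of chromatin copying were 5 of 5 lower, with medians of -0.87 and -0.90. SLBP, which binds the stem-loop of histone mRNA, had the highest level per length, at 51.04 CPM per kb. SLBP was at 108, 59.9 and 112 CPM across NT control replicates 1 to 3 and 57.6, 96.05 and 98.1 CPM across those of IKZF1-ko. CHAF1B, a subunit of the histone chaperone CAF-1, had the largest difference (-1.33), and was at 47.7, 18.1 and 45.3 CPM across NT control replicates 1 to 3 and 15.4, 36.7 and 40.3 CPM across those of IKZF1-ko. CHAF1A, its partner subunit, had -0.89. DNMT1, the maintenance DNA methyltransferase, had the smallest difference (-0.72), and was at 385, 227 and 365 CPM across NT control replicates 1 to 3 and 221, 362 and 365 CPM across those of IKZF1-ko. UHRF1, which brings DNMT1 to newly copied DNA, had -0.87. In each of these 5 genes, of which CHAF1B and DNMT1 share exon positions with a neighbour on the same strand, both libraries of the smaller set were below the other 4.

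G1/S control and E2F genes were 9 of 9 lower, with medians of -1.05 and -0.93. CCNE2, a cyclin E gene, had the largest difference of all 56 genes (-1.48). This gene shares exon positions with INTS8 and AC087752.4 on the opposite strand. CCNE2 was at 26.9, 8.12 and 25.3 CPM across NT control replicates 1 to 3 and 8.69, 21.6 and 21.5 CPM across those of IKZF1-ko, or 3.21-fold and 2.48-fold lower in the smaller set. The phosphatase CDC25A, which activates CDK2, had -1.35, and CCNE1, the other cyclin E gene, had -1.03. Their kinase CDK2 had -0.61, so the cyclins and the phosphatase differed more than the kinase. E2F4, mostly a repressor, had the highest level per length of this list (29.5 CPM per kb), and was at 112, 58.6 and 110.1 CPM across NT control replicates 1 to 3 and 46.9, 98.9 and 101 CPM across those of IKZF1-ko. The activators E2F1, E2F2 and E2F3 had -1.13, -1.002 and -0.62. E2F8, an atypical repressor of the family, had the smallest difference (-0.55), and was at 39.5, 23.5 and 40.8 CPM across NT control replicates 1 to 3 and 28.1, 36.2 and 35.1 CPM across those of IKZF1-ko.

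**Figure D3:**
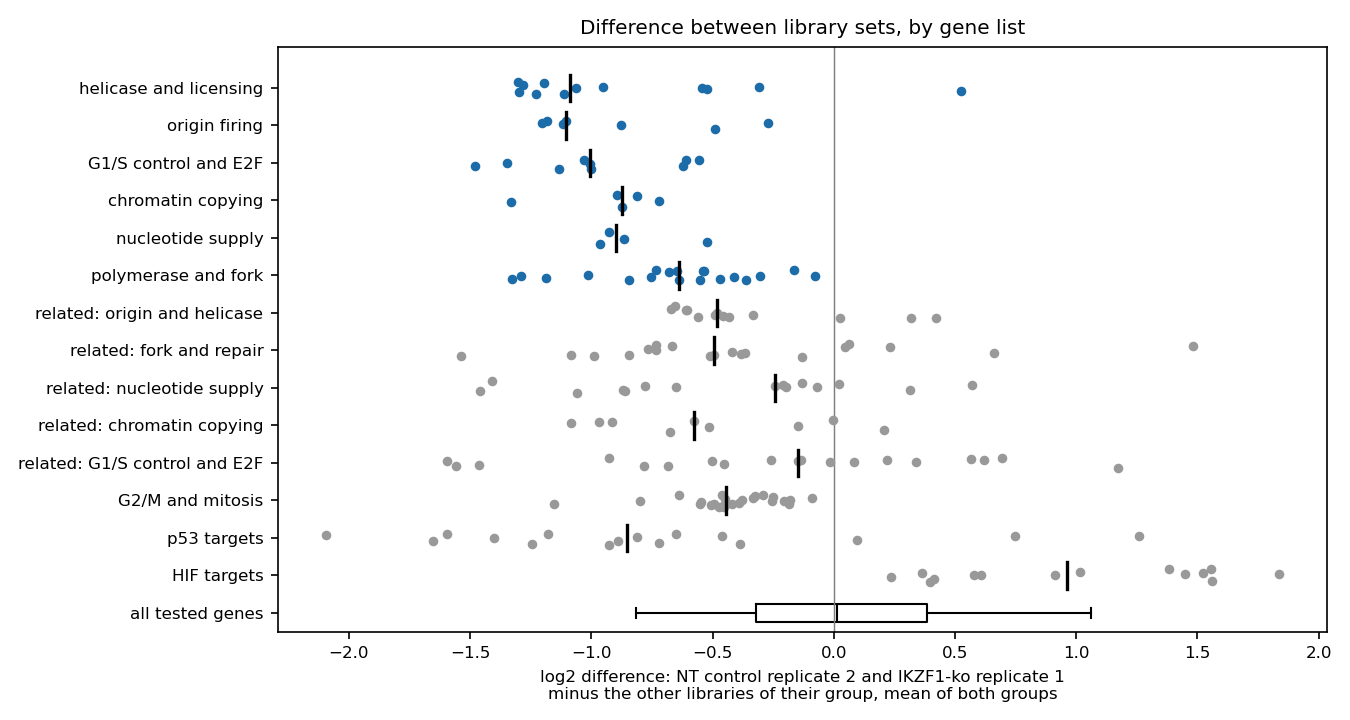
Mean log2 difference of each gene (dots), smaller set minus larger set, by list, with the list median as a bar. The 6 lists of replication genes are in blue, other lists in grey, and the box at the bottom gives the quartiles and the 5th and 95th percentiles of all tested genes. The medians of the 6 blue lists lie between -1.10 and -0.64, against 0.013 over all tested genes.

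The threshold for a 2-fold difference divided close neighbours. Just inside it, RFC3 was 2.56-fold and 2.04-fold lower and GINS4 was 2.55-fold and 2.03-fold lower. Just outside, MCM2 was 1.99-fold and 2.19-fold lower and POLA1 was 1.98-fold and 2.08-fold lower. Genes with an E2F match in their start window had a median difference of -0.98 within NT control and -0.94 within IKZF1-ko, with 24 of 25 lower in both. Genes with a window and no match had -0.75 and -0.61, with 21 of 22 lower in both. The 1 gene with a match that was not lower was CDT1, and the 1 without a match was PRIM2. The ranges of genes with and without a match overlapped, since FEN1, CHAF1B and MCM10 had large differences and no match.

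Other lists differed between the sets too, and their part in these results was not tested. Over all tested genes, 31.5% were lower and 32.5% higher in both libraries of the smaller set. Of 25 genes of G2/M and mitosis, 23 were lower in both libraries of the smaller set, with medians of -0.47 and -0.33, closer to 0 than those of the replication genes. The letters TTTGAA or TTCGAA, known from promoters of late cell cycle genes, were in the windows of 14 of 19 G2/M genes (73.7%), 4 of 47 replication genes (8.51%) and 15.8% of tested genes. Of 14 tested targets of the hypoxia factor HIF, 13 were higher in both libraries of the smaller set and 0 lower. Their summed level was 10128 and 10440.3 CPM in the smaller set and 6649 to 7098 CPM in the larger. Of 16 tested targets of p53, 11 were lower in both and 2 higher, and their sum was 689 and 572 CPM against 975 to 1157 CPM. The myeloid blast markers summed to 2984 and 3027 CPM over the 7 tested genes in the smaller set and 1652 to 1948 CPM in the larger. Of these 7 genes, 4 were higher in both libraries of the smaller set, 1 was lower and 2 overlapped. Their median log2 difference was 0.61 within NT control and 0.27 within IKZF1-ko.

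The next comparison was of the libraries labelled IKZF1-ko with NT control. On group alone, edgeR's quasi-likelihood F test with Benjamini-Hochberg adjustment called 0 of the 56 genes and 0 of all tested genes in either direction (0.0% and 0.0%). At an unadjusted p under 0.05 it had 0 of the 56 and 456 of all tested genes (3.5%). DESeq2 called 71 genes and limma-voom 1 gene on group alone, with 0 of the 56 among them. The spread between libraries of 1 group was wide for these genes, as PCNA was at 228 ± 102 CPM over NT control against 185 ± 74.9 CPM over IKZF1-ko (mean ± SD, n = 3 each) and CDT1 at 121 ± 31.6 CPM over NT control against 146 ± 26.5 CPM over IKZF1-ko (mean ± SD, n = 3 each). RPA3, the small subunit of RPA, was the only one of the 56 whose groups did not overlap. It was at 34.5, 33.5 and 36.7 CPM across NT control replicates 1 to 3 and 27.1, 32.8 and 31.2 CPM across those of IKZF1-ko, lower in IKZF1-ko, as were 4.07% of all tested genes, while 5.28% were higher without overlap and none of the 56 was among them. Its log2 fold change in edgeR was -0.20 (SE 0.074) with a term for library set, with an adjusted p of 0.0775.

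With that term, which compares the groups within each set, edgeR called 11 of the 56 genes. CDT1 rose, 1 of 56 genes (1.79%) against 6.93% of all tested genes, and 10 genes fell, 10 of 56 (17.9%) against 6.62%. With the same term 6 of 25 G2/M and mitosis genes, 8 of 16 p53 targets and 13 of 75 related replication genes outside the 56 fell, as given further on. Negative log2 fold changes, called or not, were found for 48 of the 56 (85.7%) against 49.4% of all tested genes, and the median was -0.11 against 0.0022. Within the smaller set alone the difference, IKZF1-ko replicate 1 minus NT control replicate 2, had a median of -0.047 with 33 of 56 genes below 0 (58.9%) against 49.8% of all tested genes, from 1 library a group and so with no test. The falls were lost under another model of the split between libraries. With 1 surrogate variable from sva in place of the set term, edgeR called 0 falling genes (against 3.53% of all tested genes) and 2 rising (3.57% against 4.38%), CDT1 and PRIM1, and the median of the 56 genes was 0.036.

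CDT1 had a log2 fold change of 0.28 (SE 0.052, edgeR adjusted p = 0.00136). Per the values given above, the libraries labelled IKZF1-ko were the higher ones within each set. With the surrogate variable the log2 fold change was 0.20 and the adjusted p 0.0202 in edgeR. CDT1 passed under every alternative run with the set term, with adjusted p from 9.21e-09 to 0.022. PRIM1 was at 47.6, 38.4 and 50.04 CPM across NT control replicates 1 to 3 and 45.04, 51.8 and 56.6 CPM across those of IKZF1-ko. Its log2 fold change was 0.18 (edgeR adjusted p = 0.0861) with the set term and 0.22 (0.047) with the surrogate variable.

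**Figure D4:**
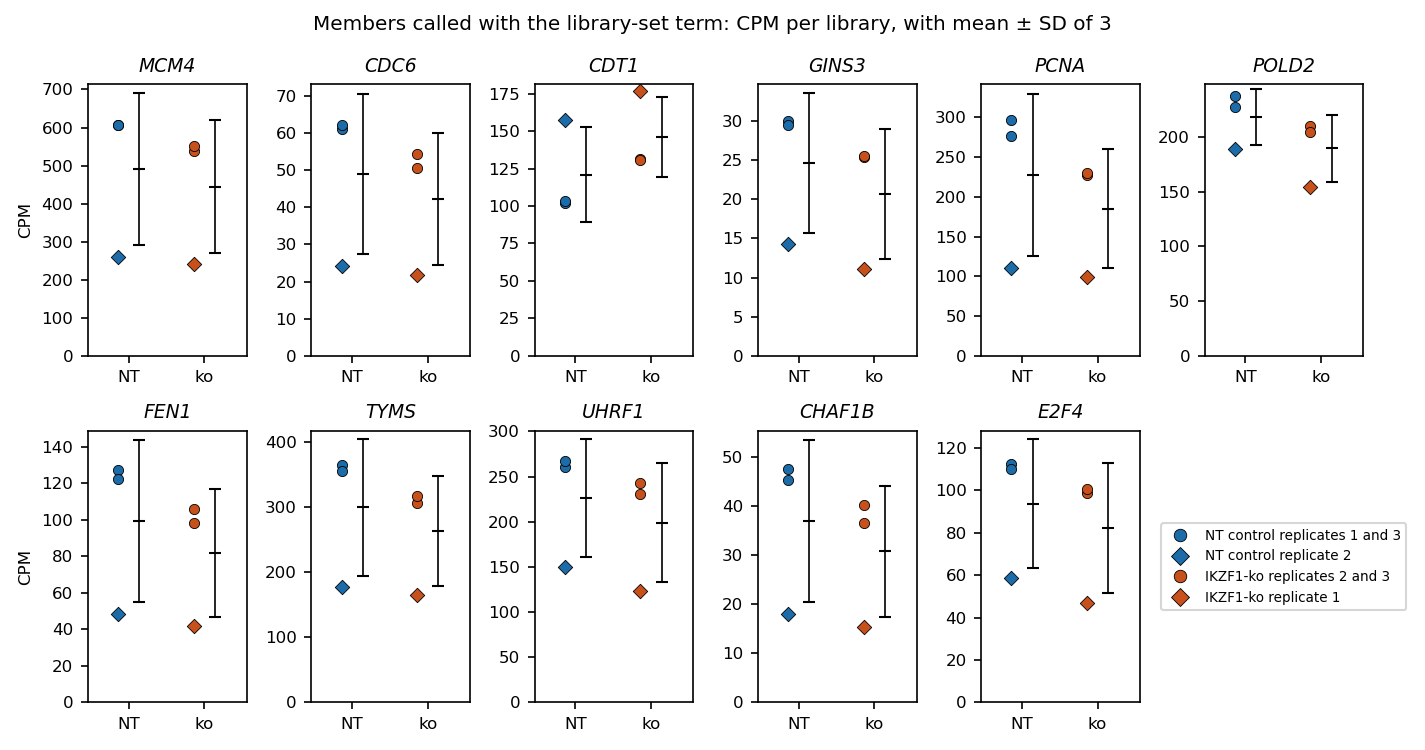
CPM in each library for the 11 genes called by edgeR with the library-set term, with the mean and SD over 3 libraries of each group beside the points; circles are the larger set and diamonds the smaller set. Within circles and within diamonds, IKZF1-ko lies above NT control for CDT1 and below it for the other 10 genes.

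Of the licensing and firing genes, CDC6, MCM4 and GINS3 fell. CDC6 had a log2 fold change of -0.21 (SE 0.066, edgeR adjusted p = 0.0416). MCM4, a ring subunit, was at 605, 259 and 607 CPM across NT control replicates 1 to 3 and 242, 538 and 552 CPM across those of IKZF1-ko, and GINS3, of the GINS complex, was at 30.04, 14.3 and 29.5 CPM across NT control replicates 1 to 3 and 11.2, 25.4 and 25.5 CPM across those of IKZF1-ko. MCM4 had -0.13 (SE 0.043, adjusted p = 0.0481 in edgeR) and GINS3 had -0.26 (SE 0.083, 0.0481), both next to the threshold of 0.05. The other ring subunits had log2 fold changes from -0.14 (MCM7) to -0.054 (MCM6) and did not pass. With the surrogate variable the value for MCM4 turned to 0.048. In GINS3, exon positions are shared with AC009118.2 on the opposite strand.

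At the fork PCNA, FEN1 and POLD2 fell, and 16 of 19 genes of this list did not pass. PCNA had -0.28 (SE 0.051, edgeR adjusted p = 0.00135), the largest fall of the 56. FEN1 had -0.27 (SE 0.055, adjusted p = 0.00351 in edgeR). POLD2, the accessory subunit of polymerase delta, was at 237, 189 and 227 CPM across NT control replicates 1 to 3 and 154, 209.5 and 205 CPM across those of IKZF1-ko, and had -0.21 (SE 0.048, edgeR adjusted p = 0.00847). PCNA was the only falling gene that passed whichever library was left out. Its value with the surrogate variable was -0.082 (adjusted p = 0.376 in edgeR), that of FEN1 -0.064 (0.578) and that of POLD2 -0.15 (0.0702).

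In nucleotide supply TYMS fell, with -0.18 (SE 0.047, edgeR adjusted p = 0.0176). TK1 had -0.20 (0.0545), RRM2 -0.10 (0.268) and RRM1 -0.013 (0.906), which did not pass in edgeR. In chromatin copying UHRF1 and CHAF1B fell. UHRF1 was at 261, 150.4 and 268 CPM across NT control replicates 1 to 3 and 123, 243 and 230.2 CPM across those of IKZF1-ko, and had -0.20 (SE 0.049, edgeR adjusted p = 0.0121). CHAF1B had -0.26 (SE 0.074, edgeR adjusted p = 0.0262), while its partner CHAF1A had 0.0055 (0.967). Of the G1/S control genes, E2F4 fell, with -0.20 (SE 0.054, edgeR adjusted p = 0.018). The activators E2F1, E2F2 and E2F3 had -0.17, -0.078 and -0.066, with adjusted p of 0.109, 0.583 and 0.61 in edgeR.

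**Figure D5:**
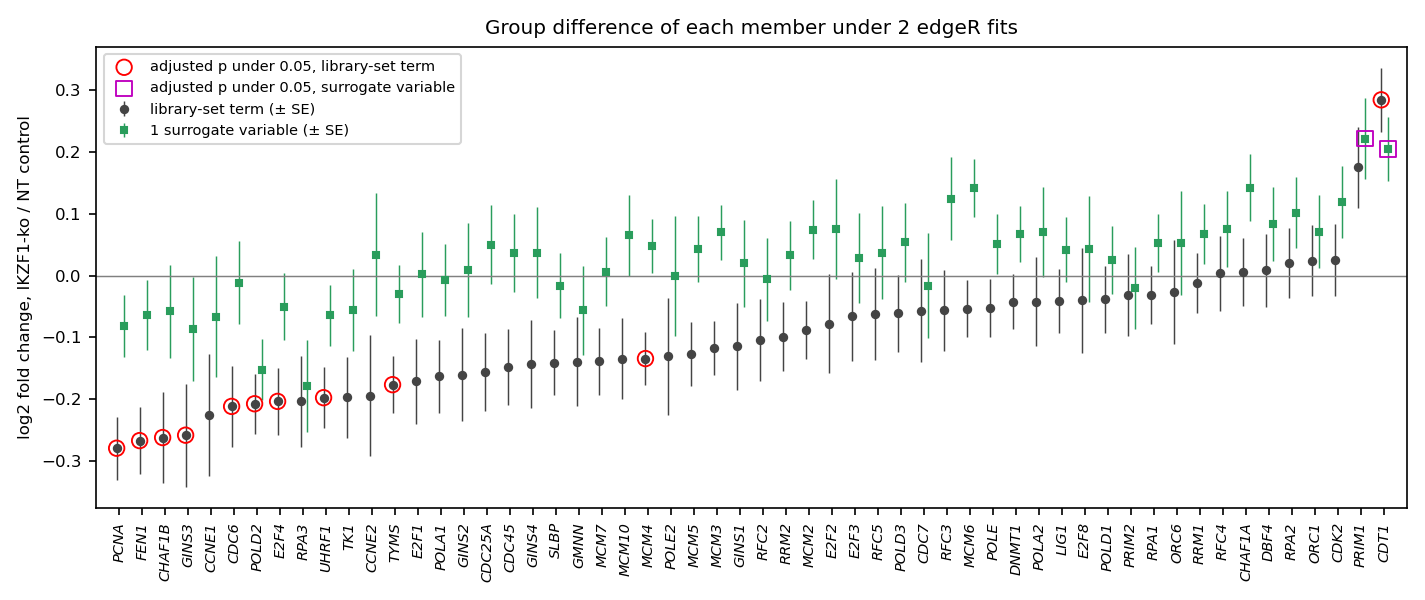
Log2 fold change of each of the 56 genes, IKZF1-ko over NT control, with its standard error, from edgeR with the library-set term (dark circles) and with 1 surrogate variable (green squares), in order of the first; rings and open squares mark an adjusted p under 0.05. With the set term 11 genes are marked, 10 of them below 0, and with the surrogate variable only CDT1 and PRIM1, both above 0.

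Within the 4 libraries of the larger set, 17 of the 56 genes were called, CDT1 up (1.79% against 7.64% of all tested genes) and 16 down (28.6% against 7.1%), and 10 of the 11 genes called with the set term were among them. GINS3 was the exception, with an adjusted p of 0.0825 in edgeR. The same 4 libraries also enter the fit with the set term, so this overlap of calls is not a separate check. The median of the 56 genes in the larger set alone was -0.14. Falls there were not particular to the 56 genes. Of the 25 G2/M and mitosis genes 14 fell and 0 rose, against 7.1% and 7.64% of all tested genes. Of the p53 targets 9 fell and 1 rose, and of the related genes described next 14 fell and 3 rose. In these 4 libraries depth goes with the group, with 11699047 and 11300519 counts for NT control replicates 1 and 3 against 18214328 and 16751839 for IKZF1-ko replicates 2 and 3, so depth and group cannot be told apart there. This difference in depth enters the fit with the set term too. In the smaller set, total counts were 14983528 for NT control replicate 2 and 15250588 for IKZF1-ko replicate 1, where the median of the 56 genes was -0.047. The part of depth was not tested.

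Related genes that are not among the 56 were mostly lower in the smaller set too. Of 76 such genes 75 were tested. Of these, 51 were lower in both libraries of the smaller set, against 31.5% of all tested genes, and 14 were higher, against 32.5%. Their median log2 differences were -0.43 within NT control and -0.40 within IKZF1-ko. Between the groups, edgeR with the set term called 3 of the 75 higher and 13 lower in IKZF1-ko, against 6.93% and 6.62% of all tested genes, with a median of -0.032. It called 2 higher and 4 lower with the surrogate variable, against 4.38% and 3.53%. In nucleotide metabolism SAMHD1, which breaks down deoxynucleotides, rose by 0.42 on the log2 scale (edgeR adjusted p = 6.89e-05). SAMHD1 was at 79.4, 29.6 and 78.8 CPM across NT control replicates 1 to 3 and 39.9, 105 and 108 CPM across those of IKZF1-ko, higher in IKZF1-ko within each set. NME1, a nucleoside diphosphate kinase, fell (-0.46, 0.000275), as did the thymidylate kinase DTYMK (-0.35, 0.00122) and the CTP synthase CTPS1 (-0.30, 0.000895). With the surrogate variable edgeR gave SAMHD1 0.64 (adjusted p = 1.14e-06), NME1 -0.32 (0.0067), DTYMK -0.22 (0.0425) and CTPS1 -0.078 (0.424). The call for CTPS1 was thus lost. NME1 shares exon positions with NME1-NME2 on its own strand, so its counts are less certain.

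Among fork and repair genes outside the 56, RNASEH2C, a subunit of the enzyme that removes RNA from DNA, fell (-0.32, edgeR adjusted p = 0.00141), with -0.42 (0.00017) under the surrogate variable. POLE3 (-0.25, 0.00631) and POLE4 (-0.30, 0.0333), small subunits of polymerase epsilon, and the checkpoint mediator CLSPN (-0.27, 0.0181) also fell with the set term in edgeR, and did not pass with the surrogate variable. ATAD5, which unloads PCNA, was the 1 gene of that list that rose (0.22, 0.0473), and it is named after its value was seen. It did not pass with the surrogate variable (0.18, 0.145). Of G1/S regulators outside the 56, the CDK inhibitor CDKN1A, also a p53 target, fell (-0.67, 2.16e-05) and cyclin D3 (CCND3) rose (0.23, 0.00716). The E2F partner TFDP1 (-0.19, 0.00813) and cyclin A2 (CCNA2, -0.22, 0.0231) fell as well in edgeR. Under the surrogate variable the calls for CDKN1A (-0.43, 0.00228) and CCND3 (0.46, 2.01e-05) held in edgeR, and those for TFDP1 (-0.051, 0.581) and CCNA2 (-0.15, 0.164) were lost. CDKN1A was at 80.4, 30.2 and 76.2 CPM across NT control replicates 1 to 3 and 14.8, 52.2 and 53.6 CPM across those of IKZF1-ko, lower in IKZF1-ko within each set. No origin and helicase gene or chromatin copying gene outside the 56 was called in edgeR with the set term.

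Of the 25 G2/M and mitosis genes, 6 fell and 0 rose with the set term, against 6.62% and 6.93% of all tested genes, with a median of -0.13. Only 1 fell with the surrogate variable, against 3.53%. PLK1, a mitotic kinase, had -0.27 (edgeR adjusted p = 0.00117), and -0.20 (0.0158) with the surrogate variable. BIRC5 (-0.26, 0.00427), cyclin B1 (CCNB1, -0.23, 0.00868) and CDC20 (-0.22, 0.0125), which act in mitosis, fell too in edgeR and did not pass with the surrogate variable. Of the 14 tested HIF targets 4 rose with the set term, against 6.93% of all tested genes, P4HA1 (0.34, 0.000123), VEGFA (0.41, 0.00147), NDRG1 (0.15, 0.0354) and BNIP3 (0.20, 0.0459). With the surrogate variable VEGFA alone of the HIF targets passed (0.37, 0.00426), against 4.38%, and the median of the list went from 0.16 to 0.018. Of the 16 tested p53 targets 8 fell with the set term, against 6.62% of all tested genes, among them AEN (-0.55, 0.000267), BAX (-0.36, 0.000267) and MDM2 (-0.38, 0.00037). Under the surrogate variable 6 p53 targets fell and 1 rose, against 3.53% and 4.38%, and BAX did not pass (-0.18, 0.0541). The part of these genes in the result was not tested.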

How the data were processed

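The authors deposited 1 table of read counts per gene, whole numbers with no scaling, with 1 column per library and 0 columns of other samples. Libraries came from a stranded mRNA kit and a NovaSeq instrument, per the labels' protocols. Per the submitters' processing notes, reads were handled with Trimmomatic and STAR on GRCh38. Which program counted them, on which strand and with which annotation is not given in the sources used here. Columns were assigned to samples by library name and to groups by title.

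CPM values used TMM factors, and levels per length divide CPM by the merged exon length in GENCODE release 29, which held 57895 of the identifiers. A symbol was found for 57392. Log2 differences between library sets used log2 CPM with a prior count of 2. The filterByExpr function of edgeR kept 13028 genes with 99.88% of counts. Groups were compared with edgeR 4.0.16 (R 4.3.3) by its 2-sided quasi-likelihood F test, with Benjamini-Hochberg adjustment over all tested genes and a threshold of 0.05, on group alone and with a term for library set. The sets were taken from the same counts, as positive or negative scores on their first principal component, so p-values with that term leave out the uncertainty of choosing them. Total counts of 11300519 to 18214328 per library set the counting error.

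The alternatives comprised 2 other filters, scaling by RLE, by upper quartile or by library size, DESeq2 1.42.0, limma-voom (limma 3.58.1), 1 surrogate variable from sva 3.50.0, a replicate block, the larger set alone and each library left out. Those within the larger set were added after seeing the data. Start windows and their sequences are from RefSeq, GRCh38.p14. Figures used matplotlib 3.10.9.

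The 56 genes, the other gene lists and the library sets were chosen with earlier results of these data known. Genes are given with all 6 values if called with the set term, or if they had the highest level per length or the largest or smallest set difference of their list. Values in all libraries are given beyond that rule for IKZF1, RPA3, PRIM1, GMNN, SAMHD1, CDKN1A, POLD4 and CDKN1B. Of other lists at most 4 called genes are named, by lowest adjusted p, except ATAD5 and the genes of the last observations, named after their values were seen.

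Both fits were tested on simulated data of 13028 genes with 200 changed between IKZF1-ko and NT control. For the fit on group alone 0% of genes changed 1.5-fold and 16% of those changed 2-fold were recovered, with 0 false among 46 calls. With the set term 84% and 90% were recovered, with 12 false among 178 calls. The simulated counts held the split between library sets, which the fit with the set term was given. These rates therefore do not show which fit suits the real counts better. Recovery of changes below 1.5-fold, as seen for the genes called among the 56, is not given.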

Additional observations from a re-analysis of the deposited data

How the results depend on the processing

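On group alone 0 of the 56 genes were called under any alternative run, the replicate block included (0 genes of all tested), while all tested genes gave 8 calls with no filter on low counts, 71 with DESeq2 (58 up, 13 down) and 1 with limma-voom. With the library-set term, 1765 of all tested genes were called, against 1159 with DESeq2, 1030 with the surrogate variable, 2942 with the replicate block added, and 811 to 1943 with 1 library left out. The 11 genes called of the 56 became 2 with the surrogate variable, 17 in the larger set alone, 21 with the replicate block added (2 up, 19 down), and 2 to 16 with 1 library left out, namely 2 without IKZF1-ko replicate 3, 4 without NT control replicate 1 and 6 without NT control replicate 3. Within the larger set DESeq2 called 6 of the 56. Leaving out 1 library there gave 10 to 12, where the lone library of an arm is assumed to vary like the other group. Counts over all tested genes are not given for these runs within the larger set. Whether the 56 genes were called more often than all tested genes in them was therefore not tested.

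Correlations of deviations from the group means were -0.66, -0.69 and 0.59 for replicate numbers 1, 2 and 3. Numbers 1 and 2 each join a library of the smaller set with one of the larger set, while number 3 joins libraries of the larger set alone. These correlations follow the library sets and cannot show whether the numbers pair the samples, so the block results rest on the number alone. The median of the 56 genes was -0.11 with the set term, 0.036 with the surrogate variable, -0.14 in the larger set alone and -0.14 to -0.093 with 1 library left out. With the surrogate variable the list medians were 0.059 (licensing), 0.0201 (firing), 0.037 (fork), 0.0015 (nucleotide supply), -0.017 (chromatin copying) and 0.034 (G1/S control). With 1 library left out, nucleotide supply ranged from -0.15 to -0.11, chromatin copying from -0.16 to -0.11 and G1/S control from -0.16 to -0.11. The median difference between library sets was -0.87, -0.82 with upper-quartile factors and -0.91 with library size alone. MCM4 turned from -0.13 to 0.048 with the surrogate variable. The cause of these shifts was not tested. Of the 10 falling genes, CDC6, GINS3 and CHAF1B also lost their call with DESeq2, and MCM4, CDC6 and GINS3 with upper-quartile factors. In simulated counts that held the split between library sets, the fit on group alone recovered 0% of 1.5-fold changes. Changes of the size seen here are smaller, and their recovery is not given. The depth was not varied in the simulation, so its part was not tested.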

Other observations

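Some regulators outside the 56 genes were higher, not lower, in the 2 libraries of the smaller set, and they are named after their values were seen. POLD4, the smallest subunit of polymerase delta, had a mean log2 difference of 1.48, against -0.41, -0.36 and -0.75 for POLD1, POLD2 and POLD3. POLD4 was at 3.14, 8.396 and 2.0995 CPM across NT control replicates 1 to 3 and 10.1, 3.77 and 4.26 CPM across those of IKZF1-ko. The CDK inhibitors CDKN1B, CDKN2C and CDKN2D, which hold cells in G1, had 0.69, 0.57 and 0.62, whereas CDKN1A had -1.60. CDKN1B was at 42.8, 65.2 and 43.04 CPM across NT control replicates 1 to 3 and 78.5, 45.4 and 45.5 CPM across those of IKZF1-ko. Of the D cyclins, CCND2 had 1.17 and CCND3 had -1.56. The origin recognition subunits were split, with 0.32 for ORC2 and 0.42 for ORC4 against -0.31, -0.48 and -0.52 for ORC1, ORC5 and ORC6, and 0.028 for ORC3. The mitochondrial thymidine kinase TK2 had 0.57, against -0.93 for its cytosolic counterpart TK1. These values describe library sets defined from the counts, and no test was made between them. POLD4, CCND2 and TK2 share exon positions with another gene on the same strand, so their counts are less certain.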
